A study of Rattus norvegicus with 6 samples.

Results

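The genes described here belong to tip cell selection and Notch signalling in blood vessels: Esm1, Apln, Aplnr, Angpt2, Tie1, Dll4, Notch1, Jag1, Hes1 and Vash1. They were found on the array as the probe sets whose only gene symbol is 1 of these 10 names, dim ones included. This gave 11 of the array's 15866 probe sets, for 9 of the 10 genes and of 10411 genes with such a probe set in all. No probe set is annotated to Dll4 alone, and Dll4 is not analysed here. Of the 11 probe sets, 10 were bright enough for the test over the array, and the Aplnr probe set was not. The 10 names were chosen by their pathway and with their measured differences between cirrhotic and control arrays already known, so these differences are given as a description.

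RNA came from liver endothelial cells of 3 control and 3 cirrhotic arrays, all from Wistar rats, and was measured on the Affymetrix rat 230A array, with the question of which transcripts differ between the groups. Cells of both groups were freed by collagenase perfusion and density centrifugation and then caught on magnetic beads that carried antibodies. The cirrhotic rats were adult males that had gone through a protocol inducing cirrhosis. Which protocol and which antibody were used, how old and of which sex the controls were, and whether an array held RNA of 1 rat or more is not stated, so p-values measure only the spread between these arrays.

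In a sprouting vessel, a leading tip cell answers vascular endothelial growth factor (VEGF) and displays the ligand Dll4. Binding of Dll4 leads to cleavage of Notch1 on the neighbouring cell, and the freed intracellular part of Notch1 joins the DNA-binding protein RBPJ, turns on repressors such as Hes1 and holds that cell in the following stalk position. Tip cells are known for Esm1, Apln and Angpt2, stalk cells for Jag1 and the apelin receptor Aplnr, and the angiopoietins act on Tie receptors of the vessel wall.

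Labelled cells carried endothelial transcripts in both groups, at different levels. All 9 measured general endothelial markers were lower in cirrhotic arrays, with a summed signal of 31818 to 33678 in control and 15920.5 to 18155 in cirrhotic arrays, and all 6 measured sinusoidal markers were lower too (29839 to 34671 and 13021 to 15315). Marker sums of stellate cells and bile duct cells were higher in cirrhotic arrays, from 2065 to 3608 in control and from 13704.5 to 24539 in cirrhotic arrays for 12 stellate cell and myofibroblast genes, 7 of them called higher. For 8 bile duct genes, 6 of them called higher, the sums were 729 to 1468 and 5125 to 12712. The sums of 7 hepatocyte genes, 3 of them called higher, overlapped between groups (27875 to 34824 and 31012 to 53440). No marker of any list had a signal of 0. In such bulk samples, fewer cells of a type and less RNA per cell cannot be told apart. The trimmed mean of the signal lay between 398.7 and 399.3 on every array, and a signal is read here only against the same probe set on other arrays.

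In the cells from cirrhotic livers the tip cell genes Esm1 and Apln, the receptors Notch1 and Tie1 and the Notch target Hes1 had lower signals, while the differences of Angpt2, Jag1 and Vash1 did not pass the test. In limma's test over all 9519 bright probe sets with Benjamini-Hochberg adjustment, 7 of the 10 tested member probe sets were lower at an adjusted p under 0.05 and 0 were higher, against 13.2% of all tested probe sets that were lower and 25.4% that were called in either direction. The 7 stand for 5 of 8 tested genes. Groups did not overlap in 9 of the 10, as in 44.9% of all tested probe sets. Esm1 and both Apln probe sets, counted among the 7, had cirrhotic signals under the level of the brightness filter. They thus entered the test only through their control arrays, and without the filter 7 member probe sets were called as well. Nothing is read from these counts, since the genes were picked with them in view. Differences below are cirrhotic minus control on the log2(signal + 16) scale, where the median of all tested probe sets was -0.02 and that of the tested member probe sets -0.97.

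**Figure D1:**
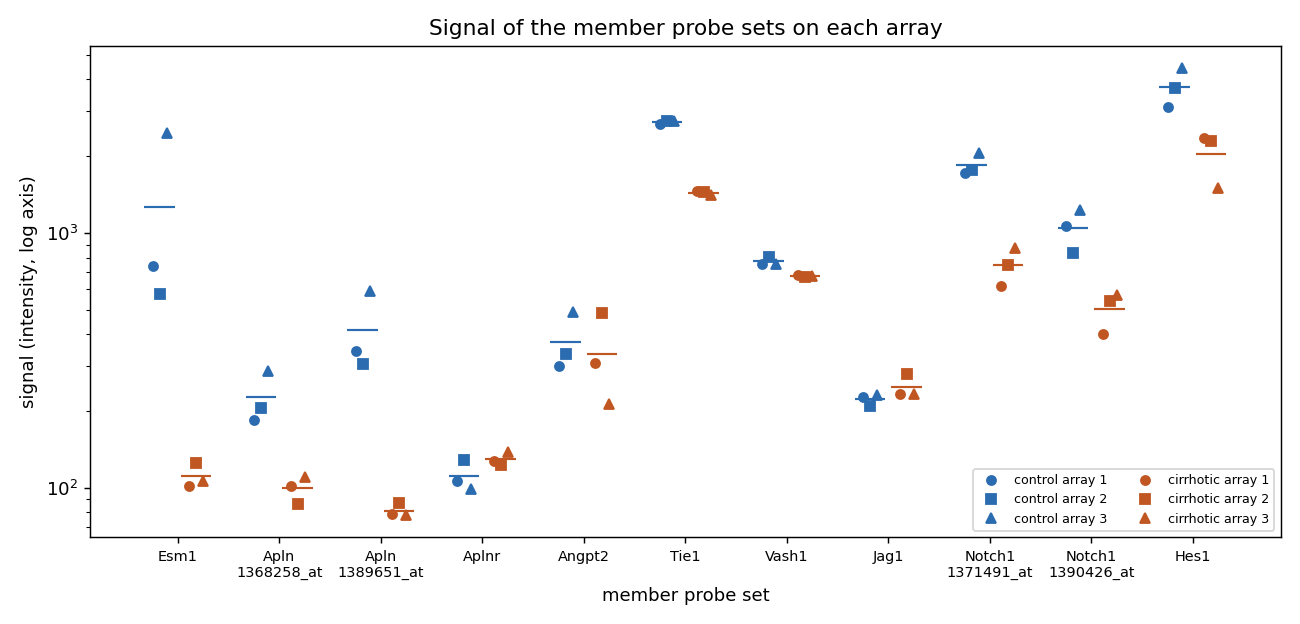
Signal of each member probe set on each array, on a log axis, with control arrays in blue, cirrhotic arrays in orange, a different marker for each array number and a bar at each group's mean (n = 3 arrays per group). Esm1 lies between 575.1 and 2455.5 on control and between 101.5 and 125.2 on cirrhotic arrays, and the heights of different probe sets are not to be compared.

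Esm1 encodes endocan, a small proteoglycan that endothelial tip cells secrete. Its signal was 743.4, 575.1 and 2455.5 on control arrays 1, 2 and 3 and 101.5, 125.2 and 106.6 on cirrhotic arrays 1, 2 and 3. Every cirrhotic array lay below every control array, and control array 3 stood far above the other controls. The cirrhotic mean of 111 ± 12.5 (SD, n = 3) was 8.83% of the control mean of 1258 ± 1040.5. The log2 difference was -3.03 (SE 0.47), and without control array 3 it was -2.40. The relative spread of Esm1, its SD as a share of the mean, was 82.7% in control and 11.2% in cirrhotic arrays.

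Apln encodes apelin, a secreted peptide released at sprouting fronts, and was read by 2 probe sets. The brighter over all arrays gave 343.2, 306.9 and 593.7 on the control arrays and 79.1, 86.8 and 78.3 on the cirrhotic arrays. Its log2 difference was -2.09 (SE 0.24), with a cirrhotic mean at 19.6% of control. The dimmer gave 184.9, 205.6 and 288.2 in control and 101.7, 86.3 and 110.2 in cirrhotic arrays, a difference of -1.05 (SE 0.20). It was the dimmer through its control signals, and read higher than the other on cirrhotic arrays 1 and 3. Both probe sets separated the groups without overlap and both peaked on control array 3, but they differed in the size of the fall, with a cirrhotic mean at 43.9% of control for the dimmer.

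Aplnr, the receptor that apelin activates, was dim on every array. It read 106.7, 128.2 and 99.2 in control and 127.3, 122.4 and 137.7 in cirrhotic arrays, with overlapping groups. Although it was above the bacterial control probe sets on all 6 arrays, its mean fell under the limit for testing, a signal of about 127. The cirrhotic signals of Esm1 and of both Apln probe sets also lay under that level, and above the bacterial control probe sets. The difference of Aplnr was 0.19, without a test. The ligand was lower in cirrhotic arrays and its receptor showed no such gap, but the contrast between them was not tested, and a dim probe set can hide a change.

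Angpt2 encodes angiopoietin-2, a ligand that loosens vessels by opposing Tie2 signalling, and it varied more between arrays of a group than between groups. Its signals were 299.2, 334.3 and 487.4 in control and 308.5, 486.8 and 213.4 in cirrhotic arrays, with a difference of -0.19 (SE 0.30) that did not pass. The highest control and the highest cirrhotic signal were nearly equal, and the cirrhotic spread was 41.3% of its mean. Its direction turned when control array 3 (0.0096) or cirrhotic array 3 (0.082) was left out.

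Tie1 is the companion receptor that pairs with Tie2 in endothelium, and it was the steadiest of the genes that fell. Control arrays read 2662.4, 2749.9 and 2752.7 and cirrhotic arrays 1462.2, 1450.1 and 1405.9. The SD was 1.89% of the mean in control and 2.06% in cirrhotic arrays, and the groups lay far apart. The difference was -0.91 (SE 0.10), which put the cirrhotic mean at 52.9% of control.

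Vash1 encodes vasohibin-1, an enzyme that endothelial cells make to restrain sprouting. It read 757.2, 805.9 and 754.3 in control and 686.2, 668.4 and 678.0 in cirrhotic arrays. The groups did not overlap, but the difference of -0.18 (SE 0.12) was small and did not pass the test over the array.

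Notch1, the main Notch receptor of vascular endothelium, was read by 2 probe sets. The brighter gave 1719.8, 1771.8 and 2062.1 in control and 621.1, 746.5 and 872.0 in cirrhotic arrays. The other gave 1061.7, 833.7 and 1227.7 in control and 402.4, 539.7 and 568.3 in cirrhotic arrays. Both showed every cirrhotic array below every control array, and on both the cirrhotic arrays kept the same order, array 1 lowest and array 3 highest. The differences were -1.30 (SE 0.16) and -1.02 (SE 0.19), with cirrhotic means at 40.3% and 48.4% of control.

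Jag1, a Notch ligand that opposes Dll4 in sprouting endothelium and is also made by bile duct and mural cells, read 227.3, 209.1 and 230.4 in control and 233.7, 280.5 and 232.6 in cirrhotic arrays. The lowest cirrhotic signal lay just above the highest control signal, so the groups touched without overlapping. Its difference of 0.15 (SE 0.14) did not pass. The sums of stellate cell and bile duct markers given above were higher in the same cirrhotic arrays, and their part in the level of Jag1 was not tested.

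Hes1, a repressor that Notch turns on directly, had a signal of 3125.9, 3686.7 and 4421.7 in control and 2359.6, 2284.9 and 1493.3 in cirrhotic arrays. The groups did not overlap, and cirrhotic array 3 was clearly the lowest. The difference was -0.88 (SE 0.20), with the cirrhotic mean of 2046 ± 480.1 at 54.6% of the control mean of 3745 ± 650 (SD, n = 3). It no longer passed without control array 2 (-0.89, adjusted p = 0.0541) or control array 3 (-0.76, adjusted p = 0.0717).

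Hes1 is the member best known as a direct target of RBPJ, so the members' upstream sequences were searched for the letters that RBPJ prefers. The 250 bases before the annotated start were taken from RefSeq on the GRCr8 build for the 7 members found there, and are printed 5′ to 3′ for the 3 members with a match to the RBPJ core TGGGAA on either strand. Capitals mark the match. Hes1 is shown because it has 2 of them, both on the strand of the gene and beginning 123 and 109 bases before the start, and Tie1 and Vash1 because they have 1 each, in Tie1 on the opposite strand (TTCCCA).
Hes1 (chr11:84213046-84213295, minus strand): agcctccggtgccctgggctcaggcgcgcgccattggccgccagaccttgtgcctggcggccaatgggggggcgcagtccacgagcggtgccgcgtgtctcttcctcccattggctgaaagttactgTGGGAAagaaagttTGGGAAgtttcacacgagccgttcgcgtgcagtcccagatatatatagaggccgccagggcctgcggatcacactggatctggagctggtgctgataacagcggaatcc
Tie1 (chr5:137304982-137305231, minus strand): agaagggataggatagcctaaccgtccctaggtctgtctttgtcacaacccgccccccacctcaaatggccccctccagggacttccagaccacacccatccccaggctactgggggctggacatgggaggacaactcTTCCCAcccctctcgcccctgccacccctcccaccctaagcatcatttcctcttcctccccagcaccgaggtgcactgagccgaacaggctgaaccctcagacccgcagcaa
Vash1 (chr6:112059836-112060085, plus strand): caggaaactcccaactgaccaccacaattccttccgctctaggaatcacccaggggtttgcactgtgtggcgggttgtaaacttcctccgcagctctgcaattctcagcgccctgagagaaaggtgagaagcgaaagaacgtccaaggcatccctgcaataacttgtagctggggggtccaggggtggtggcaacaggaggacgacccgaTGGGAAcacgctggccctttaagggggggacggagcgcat
A match was present in 22.1% of the 33469 upstream windows of that length, and 2 or more in 2.71%. The windows of Esm1, Apln, Notch1 and Jag1 held no TGGGAA, which says only that these letters are not in these 250 bases. The N-box CACNAG, a motif that Hes1 protein itself binds, matched 4 times in the Hes1 window and 4 times in the Notch1 window on either strand, of which 1 overlapping pair in Notch1 shares bases, and once in that of Apln. At least 1 N-box match was present in 37.2% of all windows, and at least 2 in 8.02%. The E-box CACGTG, which reads the same on both strands, matched in none of the 7 windows and in 5.59% of all. Of the 3 genes with an RBPJ core, Hes1 and Tie1 had lower signals in cirrhotic cells and Vash1 had a difference that did not pass, and of the 4 without, Esm1, Apln and Notch1 had lower signals.

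Control array 3 was the highest control for 9 of the 11 member probe sets, the exceptions being Aplnr and Vash1. Over all tested probe sets it was highest in 33.4%, over the endothelial markers in 3 of 9 and over the tested genes of the pathway lists below in 23 of 54. On the log2 scale it exceeded the mean of control arrays 1 and 2 by 1.88 for Esm1, by 0.84 and 0.53 for the brighter and dimmer Apln probe sets, by 0.60 for Angpt2 and by 0.38 for Hes1. For Notch1 the excess was 0.24 on the brighter and 0.38 on the other probe set, and for Jag1 and Tie1 it was only 0.07 and 0.02. The median excess was 0.38 over the member probe sets, 0.10 over the endothelial markers and 0.01 over all tested probe sets. On the same array the sums of stellate cell, bile duct and macrophage markers were the lowest of the controls, at 2065, 729.2 and 2963, and the ratios of 3' to 5' signal of actin and hexokinase, a sign of RNA quality, were the second highest of the 6 arrays (1.53 and 3.54) after control array 1 (1.57 and 7.42). The part of either in these levels was not tested. Esm1, Apln, Angpt2, Notch1 and Hes1 thus shared their highest control array, and the differences known when the genes were chosen include that array.

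Since the endothelial markers as a whole were lower in cirrhotic arrays, each member was also set against them on its own array. The mean log2(signal + 16) of the 9 markers changed by -1.08, and single markers changed by between -1.63 (Flt1, a VEGF receptor) and -0.56 (Ramp2, part of the adrenomedullin receptor). Subtracting this mean from a member array by array shifts every member upward by the same amount, and shows which members changed more or less than these markers.

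**Figure D2:**
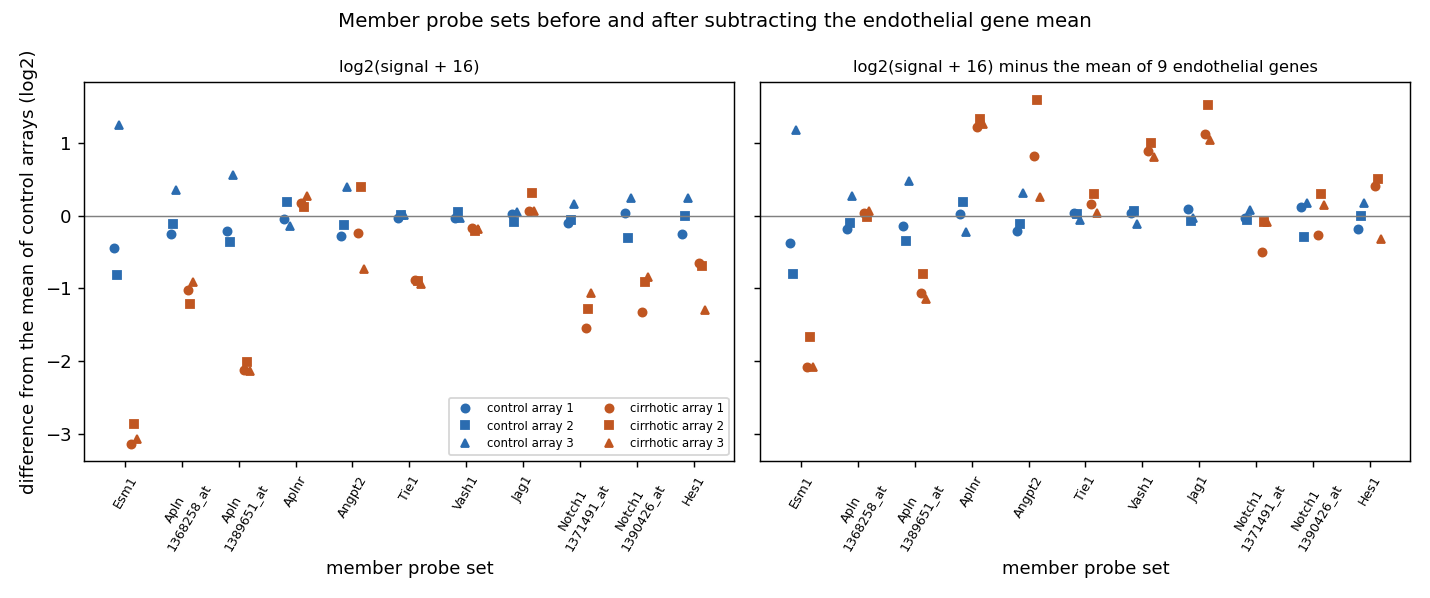
Log2(signal + 16) of each member probe set on each array as a difference from the mean of the 3 control arrays, before (left) and after (right) subtracting the mean of 9 general endothelial markers on that array. After subtraction Tie1 and Hes1 differ between groups by 0.17 and 0.20, while Esm1 keeps a difference of -1.95 and Jag1 and Vash1 lie higher by 1.23 and 0.90.

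Relative to the markers, Esm1 was lower in cirrhotic arrays, with a difference of -1.95 (SD 1.04 in control and 0.24 in cirrhotic arrays, n = 3 each), without overlap. The brighter Apln probe set had a difference of -1.004 (SD 0.43 and 0.18), also without overlap, whereas the dimmer differed by 0.03 with overlapping groups. For the brighter Apln probe set the value depended on the added constant, and was -0.35 with 126 in place of 16. Esm1 was dim on the cirrhotic arrays too, and its difference before subtraction was -2.30 with 126 in place of -3.03. The relative value of -1.95 for Esm1 therefore holds for the constant of 16 only.

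The Notch receptor and target stayed near the markers. Notch1 differed by -0.22 on the brighter probe set (SD 0.07 and 0.24), without overlap, and by 0.06 on the other, where the groups overlapped. Hes1 differed by 0.20 (SD 0.17 and 0.45) with overlapping groups, and Tie1 by 0.17 (SD 0.05 and 0.13), without overlap. The remaining members lay higher relative to the markers: Aplnr by 1.28, Jag1 by 1.23, Vash1 by 0.90 and Angpt2 by 0.89, the last with overlapping groups (SD 0.28 and 0.68). These 4 are the members whose own signals changed little.

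The rest of the pathway was read from 6 lists written by function. They named 95 genes, of which 67 had a probe set and 54 were bright enough to be tested, each on its brightest probe set. At an adjusted p under 0.05, 21 of the 54 were lower in cirrhotic arrays and 7 were higher, against 12.7% of all 7148 tested genes lower and 12.7% higher. Their median difference was -0.36, and that of all tested genes was close to 0 (-0.0023). Without control array 1 or cirrhotic array 1, 4 were higher in place of 7.

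**Figure D3:**
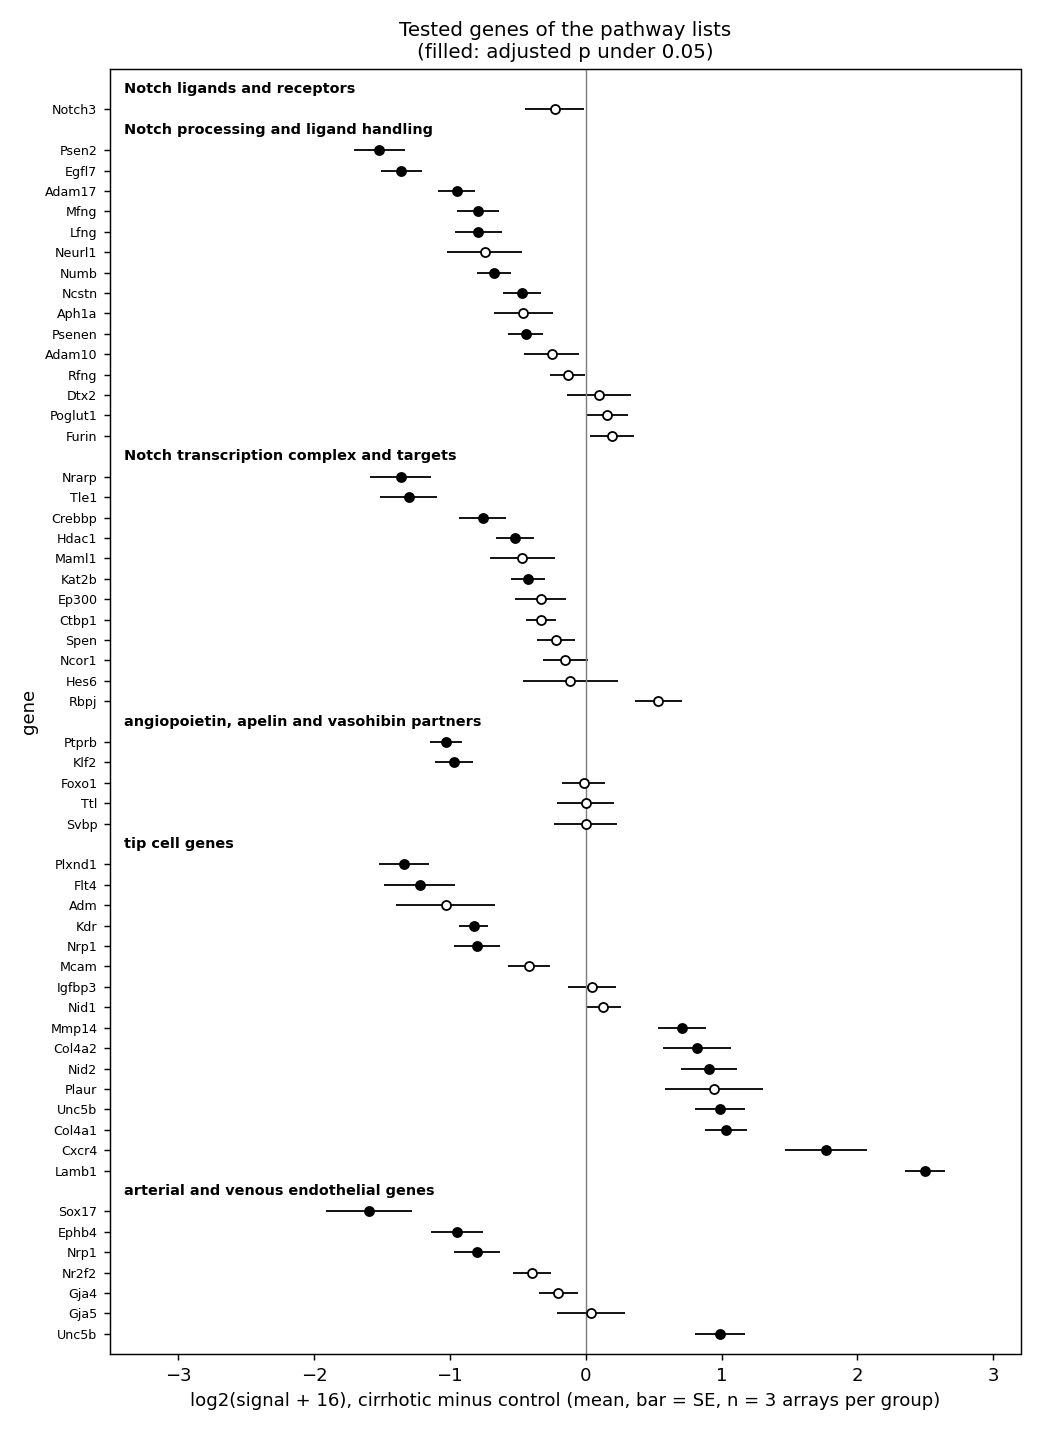
Log2 difference, cirrhotic minus control, of each tested gene of the 6 pathway lists (point, with SE as the bar, n = 3 arrays per group), filled where the adjusted p was under 0.05. Filled points of the Notch lists all lie left of 0, from Psen2 at -1.52 to Kat2b at -0.43, and those of the tip cell list lie on both sides, from Plxnd1 at -1.34 to Lamb1 at 2.50.

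Other Notch ligands and receptors were mostly too dim to be tested, which was the case for 6 of the 7 with a probe set. Notch3, the receptor of mural cells, was tested and did not pass (-0.23, SE 0.21, adjusted p = 0.468), with signals of 151.1, 242.5 and 164.3 in control and 164.2, 126.1 and 173.1 in cirrhotic arrays. Notch4, a receptor found mainly in endothelium, read 111.7, 194.2 and 123.1 in control and 82.1, 60.4 and 123.3 in cirrhotic arrays, with overlapping groups and no test. Its second, dimmer probe set read 43.0, 58.7 and 90.1 in control and 10.6, 4.8 and 14.5 in cirrhotic arrays without overlap, but only control arrays 2 and 3 lay above the bacterial control probe sets. Notch2, the receptor of bile duct formation, had means of 28.7 in control, within the bacterial control probe sets, and 53.1 in cirrhotic arrays, where array 1 was also within them, so no fold is given. At such signals the array gives little information on these genes.

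Genes that process Notch or handle its ligands were lower or did not pass, with 8 of 15 tested genes lower, 0 higher and a median of -0.47. Psen2, a catalytic subunit of the gamma-secretase that frees the intracellular part of Notch, read 799.2, 771.4 and 741.6 in control and 230.1, 350.4 and 213.8 in cirrhotic arrays. It fell by 1.52 on the log2 scale (SE 0.19, adjusted p = 0.00153), with a wide gap between the groups. The other gamma-secretase subunits of this list were singled out after their values had been seen. Ncstn and Psenen fell by 0.47 and 0.44 (adjusted p = 0.0449 and 0.0412), and Aph1a did not pass (-0.46, adjusted p = 0.156). With 5 arrays Ncstn no longer passed whichever array was left out (adjusted p from 0.0608 to 0.152), and Psenen passed only without cirrhotic array 3 (otherwise from 0.0641 to 0.144). Adam17, a protease that can make the cut before gamma-secretase, fell by 0.95 (SE 0.14, adjusted p = 0.00276), while Adam10, the main protease of that step, singled out likewise, did not pass (-0.25, SE 0.20, adjusted p = 0.399).

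Egfl7, a matrix protein of endothelium that binds Notch ligands and receptors, fell by 1.36 (SE 0.15, adjusted p = 0.00107), from 3577 to 4347 in control to 1248 to 1639 in cirrhotic arrays. Numb, an inhibitor that directs Notch to breakdown, fell by 0.67 (SE 0.13, adjusted p = 0.00761). The fringe enzymes, which add sugars that tune Notch toward Delta ligands, were singled out after their values had been seen. Lfng and Mfng fell by 0.79 each (SE 0.17 and 0.15, adjusted p = 0.0145 and 0.00895) and Rfng did not pass (-0.13, SE 0.13, adjusted p = 0.486). The call of Lfng ended without cirrhotic array 1 (adjusted p = 0.0546), and without that array 5 of this list were lower in place of 8.

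In the transcription complex and among the targets 5 of 12 tested genes were lower, 0 were higher and the median was -0.38. Rbpj, the DNA-binding partner of Notch, read 266.7, 342.9 and 328.0 in control and 557.5, 386.4 and 442.8 in cirrhotic arrays. Its groups did not overlap, but its difference of 0.53 (SE 0.17, adjusted p = 0.0562) did not pass with all arrays and passed without cirrhotic array 2 (0.65, adjusted p = 0.036) and with array weights (0.75, adjusted p = 0.00666). Nrarp, a Notch target that feeds back on the pathway, read 946.0, 1807.6 and 1208.5 in control and 510.2, 482.9 and 467.8 in cirrhotic arrays and fell by 1.36 (SE 0.22, adjusted p = 0.0046). Hey1, a target typical of endothelium, is named by no probe set alone and is not analysed here.

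Of the cofactors, Tle1, a corepressor that Hes proteins recruit, fell by 1.30 (SE 0.21, adjusted p = 0.00435). Crebbp, a histone acetyltransferase, and Hdac1, a histone deacetylase, fell by 0.76 and 0.52 (adjusted p = 0.0152 and 0.0294). Both calls were fragile: Crebbp no longer passed when control array 1 or 3 was left out (adjusted p = 0.0568 and 0.0642), and Hdac1 when any of these or cirrhotic array 1 was left out (0.101, 0.107 and 0.104). Over the list, 2 genes were lower without control array 1 or without control array 3, and 3 without cirrhotic array 1.

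Around the Tie and vasohibin genes, 2 of 5 tested partners were lower and 0 higher, with a median of -0.01. Ptprb, the endothelial phosphatase that silences Tie2, read 7009, 6479 and 6077 in control and 2822, 3570 and 3204 in cirrhotic arrays and fell by 1.03 (SE 0.11, adjusted p = 0.00103). Klf2, a flow-induced transcription factor of quiescent endothelium, fell by 0.97 (SE 0.14, adjusted p = 0.00294) on its brightest probe set, and 3 other tested probe sets of it were lower as well. Tek, the gene of Tie2, and Angpt1, its activating ligand, are named by no probe set alone and are not analysed here.

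Further tip cell genes split in direction, with 4 of 16 tested genes lower, 7 higher and a median of 0.42. Receptors went both ways, with Cxcr4 and Unc5b, described below, higher. Kdr, the main VEGF receptor, read 7212, 7163 and 7724 in control and 3795, 3976 and 4743 in cirrhotic arrays and fell by 0.82 (SE 0.11, adjusted p = 0.00177), and the semaphorin receptor Plxnd1 fell by 1.34 (SE 0.18, adjusted p = 0.00232). The genes that rose included components of basement membrane, Lamb1 by 2.50 (SE 0.15, adjusted p = 0.000355) and Col4a1 by 1.03 (SE 0.15, adjusted p = 0.00324). Without control array 1 or cirrhotic array 1 the higher genes were 4, and the lower were 2 without cirrhotic array 1. With probe sets of shared-sequence suffixes left out the lower genes were 2 and the higher 5. This removes the probe sets of Kdr and Flt4 among the lower genes, and that of Mmp14 and every one of Cxcr4 among the higher.

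Cxcr4, a chemokine receptor of tip cells that leukocytes also carry, read 629.6, 1222 and 817.3 in control and 3182, 4046 and 2014 in cirrhotic arrays. It rose by 1.77 (SE 0.30, adjusted p = 0.00558), opposite to Esm1 and Apln. Marker sums of T and NK cells were 1285 to 2022.5 in control and 1502 to 3633 in cirrhotic arrays, with 3 of 5 tested markers higher, and those of macrophages were 2963 to 5134 and 4705 to 9881, with 2 of 5 higher and 1 lower. Both sums overlapped between groups. The 3 higher T and NK cell markers, Cd3e, Cd3g and Cd2, did not overlap on their own, while Nkg7, Gzmb and the untested Cd3d did. Within the cirrhotic group Cxcr4, the T and NK cell sum and the macrophage sum were all lowest on array 3. The bile duct sum was lowest there too, and the stellate cell and hepatocyte sums were lowest on array 2. Of all tested probe sets, 38.8% had their lowest cirrhotic signal on array 3. The part of T and NK cells and macrophages in Cxcr4, and of the stellate cell genes given above in Lamb1 and Col4a1, was not tested. Ramp3, an adrenomedullin coreceptor of tip cells singled out after its values had been seen, was too dim on average to be tested, yet read 28.6, 11.9 and 22.5 in control and 280.2, 288.3 and 134.8 in cirrhotic arrays. None of its control signals exceeded the bacterial probe sets, so it was at least 5.42-fold higher in cirrhotic arrays, and without the filter it passed (adjusted p = 0.0027).

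Of 7 tested arterial and venous genes, 3 were lower and 1 higher, with a median of -0.39. Sox17, an arterial transcription factor linked to Notch, read 217.6, 565.3 and 343.7 in control and 131.4, 97.8 and 89.7 in cirrhotic arrays and fell by 1.59 (SE 0.32, adjusted p = 0.00975). The venous receptor Ephb4 fell by 0.95 (SE 0.19, adjusted p = 0.0103). Nrp1, a VEGF coreceptor, fell by 0.80 (SE 0.17, adjusted p = 0.012), and no longer passed when control array 3 (adjusted p = 0.0563) or cirrhotic array 1 (0.0511) was left out. Unc5b, a netrin receptor of tip and arterial cells, read 101.0, 109.9 and 93.3 in control and 231.9, 249.2 and 174.9 in cirrhotic arrays and rose by 0.99 (SE 0.18, adjusted p = 0.00708). The other 3 tested genes, named after their values had been seen, did not pass. They were Gja4 (-0.20, adjusted p = 0.337), Gja5 (0.04, adjusted p = 0.931) and Nr2f2 (-0.39, adjusted p = 0.0787). Nrp1 and Unc5b are counted in the tip cell list as well. Sox17 and Ephb4 were thus both lower, and the list had no single direction.

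The profiles most like those of Esm1, Apln and Hes1 were looked for among 8167 other tested probe sets with 1 symbol, by the root mean square difference of log2(signal + 16) over the 6 arrays after centring each probe set on its mean. Nearest to Esm1 were Mylk3, a myosin kinase (0.61), the zinc transporter Slc39a8 (0.63) and the lipid droplet protein Cidea (0.67). Their control signals lacked the high value of array 3 that marks Esm1: Mylk3 read 463.5, 355.3 and 448.1 there. Nearer matches were found for Apln, with Calml4 (0.23), the matrix protein Tinagl1 (0.23) and the secreted glycoprotein Lrg1 (0.25), and for Hes1, with the chromatin protein Gatad2a (0.10), the microtubule protein Mtus1 (0.11) and Klf2 (0.13).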

How the data were processed

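The authors deposited intensity values, as linear signals of each probe set. Which software made them is not stated. The mean without the lowest and highest 2% was alike on all arrays, so the values were kept. Probe sets were named from the platform annotation (12783 of 15866 with 1 symbol, 312 with several, 2771 with none). The 57 control probe sets and the dimmest 40% were left out, and cirrhotic was compared with control in limma 3.58.1 (R 4.3.3) on log2(signal + 16), with lmFit, eBayes with a variance trend, two-sided p-values and Benjamini-Hochberg adjustment over 9519 probe sets. The test was tried on simulated data with independent noise for each probe set and array. Such data lack deviations that probe sets of an array share, so the trial does not check the p-values against these. A signal counted as within background if no brighter than the brightest of the array's 27 bacterial probe sets (21.7 to 49.9), and a bound sets it at that level. Actin's 3' probe set was brighter than its 5' one, a sign of RNA quality, by a ratio between 1.22 and 1.57, and for hexokinase the ratio was 1.81 to 7.42, both highest on control arrays 1 and 3. A gene of several probe sets is read on the brightest.

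The members and lists were chosen with earlier results of these data known. The text names all members, up to 4 called genes of each list with the smallest p, 10 genes fixed whatever their result, and the 3 nearest profiles of Esm1, Apln and Hes1 (for Dll4 none could be sought). Alternatives covered scaling, the constant, the filter, the variance model, array weights, probe sets, blocking by array number and leaving out single arrays.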

Additional observations from a re-analysis of the deposited data

How the results depend on the processing

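Of 137 values of single members under the alternatives, 133 kept their direction and their side of the threshold. The exceptions were Angpt2, with a range of -0.48 to 0.082 when each array was left out (0.0096 without control array 3 and 0.082 without cirrhotic array 3), and Hes1 without control array 2 or 3. Aplnr entered the test only without the filter (0.19, adjusted p = 0.511). The count of called member probe sets was 6 to 7 with each array left out, 5 with the stricter filter and 7 under both scalings. Over all probe sets 2421 were called, 3772 with array weights and 1341 to 2472 with each array left out (1341 without control array 3 and 1366 without cirrhotic array 1). Median centring shifted all tested probe sets to a median of -0.10 and made 61.5% of calls lower, against 51.8%. The stricter filter removed Unc5b and both Apln probe sets from the test, so Apln has no value under it. Of the pathway list genes, 14 to 22 were lower and 4 to 7 higher with each array left out.

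Only array numbers 2 and 3 stand in the titles of both groups, and arrays with the same number did not deviate together (r = -0.0093 and -0.16), so the numbers were not taken to pair the arrays. With those 4 arrays and the replicate block, 908 probe sets, 5 member probe sets, 12 lower and 3 higher list genes were called. With the block in all 6 arrays, 1948 probe sets and 7 member probe sets were called.

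The alternatives for levels relative to the endothelial markers were chosen after seeing the data. With 126 as the constant, Apln, read here on its brighter probe set only, was -0.35 in place of -1.004 and Aplnr 1.10 in place of 1.28. With each array left out the values were -2.35 to -1.36 for Esm1, -1.18 to -0.76 for Apln, 1.17 to 1.37 for Aplnr, 0.54 to 1.21 for Angpt2, 0.11 to 0.24 for Tie1, -0.29 to -0.080 for Notch1, 1.09 to 1.32 for Jag1, 0.047 to 0.46 for Hes1 and 0.84 to 0.95 for Vash1. The cause of these movements was not tested. Signal over background limits Aplnr, Notch2 and Notch4, and on the cirrhotic arrays also Esm1 and Apln. With 126 as the constant the differences of these 2 before subtraction were smaller. They were -2.30 in place of -3.03 for Esm1 and -1.35 in place of -2.09 for the brighter Apln probe set.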
